A study of Mus musculus with 8 samples.

Results

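The interferon response and the immunoproteasome were followed through 34 named genes in RNA sequencing libraries of mouse white quadriceps, a thigh muscle region made up largely of fast, glycolytic fibres. The genes were chosen by name from the interferon-stimulated genes, the IRF and STAT transcription factors, the inducible proteasome subunits and the peptide transporter. All 34 were among the 54091 rows of the expression table and all 34 belonged to the 15657 genes tested. The 4 Cre libraries (replicates 5 to 8) came from mice with CKM Cre, labelled as an Acot2 knockout in muscle. The 4 Loxp libraries (replicates 1 to 4) came from Loxp/Loxp mice, labelled with no Cre. All mice were males aged 11 to 14 weeks on a high fat diet (60%) for 7 days. Acot2 encodes a mitochondrial thioesterase that releases fatty acid and coenzyme A from acyl-CoA. The CKM (muscle creatine kinase) promoter is active in muscle fibres, so the vessel, connective tissue and immune cells of the same muscle keep the gene. Since only the knockout carries Cre, any action of the recombinase and the loss of Acot2 cannot be told apart. No label says that the libraries are from different animals, and p-values therefore measure only the spread between these samples.

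Interferons are secreted proteins that bind receptors on the cell surface and, through JAK kinases, activate STAT and IRF transcription factors. Type I interferon acts mainly through a complex that includes STAT2 and IRF9 and binds the interferon-stimulated response element, and interferon gamma acts mainly through the gamma-activated site. The genes switched on encode viral RNA sensors, antiviral enzymes and GTPases, and the parts of the proteasome and transporter that supply peptides to MHC class I. Muscle fibres and the macrophages between them can both respond to interferon. In bulk tissue, fewer cells of a type and less RNA per cell cannot be told apart.

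Sequences before the transcription start show the elements through which these genes are known to be read. In RefSeq windows of GRCm38.p6, running from 250 bases before to 50 bases after each start, the letters GAAA, any 2 bases and GAAA again on either strand, the core of the response element, were found for 12 of the 26 members with a window (46.2%), against 3.99% of all 27025 genes. The letters TTCNNNGAA, the gamma-activated site, which read the same on both strands, were found for 7 of 26 (26.9%), against 9.55% of all genes. The stretches below are given for members on which the results turn, in the direction of the gene and outside annotated exons, with the letters of either motif in capitals. Adjacent motifs overlap where their capitals run on.
Ifit1 (chr19:34640773-34640825, plus strand): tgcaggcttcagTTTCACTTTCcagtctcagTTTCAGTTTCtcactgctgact
Ifit3 (chr19:34583361-34583428, plus strand): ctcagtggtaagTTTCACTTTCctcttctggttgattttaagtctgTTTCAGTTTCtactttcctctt
Isg15 (chr4:156200863-156200908, minus strand): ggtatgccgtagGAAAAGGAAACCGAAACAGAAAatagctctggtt
Oas1a (chr5:120907526-120907557, minus strand): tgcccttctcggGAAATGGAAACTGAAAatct
Bst2 (chr8:71537575-71537620, minus strand): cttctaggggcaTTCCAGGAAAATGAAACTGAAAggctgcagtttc
Irf1 (chr11:53769912-53769944, plus strand): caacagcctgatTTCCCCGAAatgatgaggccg
Ifit1 and Ifit3 each held a pair of separate response elements, Isg15 held 3 that overlap, and in Bst2 a gamma-activated site ran into overlapping response elements. Irf1 held a gamma-activated site alone. The starts of Psmb9 and Tap1 lie head to head on chromosome 17, with 225 bases between them in RefSeq. In GENCODE their annotated exons overlap on opposite strands, over 5.79% of the exon bases of Psmb9 and 3.87% of those of Tap1.

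Acot2 was read first as the check on the labels. Its normalized count, the number of reads divided by a size factor for the library, was 325, 273, 256 and 354 in Cre replicates 5 to 8 and 2179, 3348, 4165 and 2166 in Loxp replicates 1 to 4. The groups did not overlap, and the log2 difference, always Cre minus Loxp here, was -3.24 with a standard error (SE) of 0.20 (adjusted p = 4.72e-06 by limma). An exact permutation test, two-sided, gave p = 0.0286, the smallest that 4 against 4 allow. Of the 50-base windows of Acot2, 27.7% also occur in its relatives Acot1, Acot4 and Acot5. Acot2 was the only gene of 15657 that passed an adjusted p of 0.05 (0.00639% of those tested). Depth was 55284020 to 109101280 recovered reads per library. Markers of fast fibres, the labelled tissue, were abundant in every library. On the first principal component, with 34.5% of the variance, Loxp replicates 3 and 4 lay at 55.2 and 56.1 and the other 6 libraries between -38.6 and 0.56. The summed count of 8 heart muscle markers was 10467 in Cre replicate 8, against 1015 to 1532 in the other Cre libraries and 840 to 1136 in the Loxp libraries. Which of the 8 markers make up this sum was not examined. Values without Loxp replicates 3 and 4 are given beside the members with the larger differences.

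No member passed the threshold between the groups (limma, 0 of 34; limma voom on recovered reads, 0 of 34). The median log2 difference over the members was 0.17, with 22 higher and 12 lower estimates, beside a median of 0.0026 over all genes tested. At an unadjusted p under 0.05, 7 members were higher (20.6%) and 0 lower, where 13.6% of all genes were higher and 13.3% lower. These 7 were Bst2, Ifi35, Ifi27, Xaf1 and the immunoproteasome subunits Psmb8, Psmb9 and Psmb10. Groups that do not overlap were found in 2 members, Ifi35 and Psmb10 (5.88%), close to the 6.06% of all genes that stood apart in the same direction. No member had groups that stood apart with Cre lower, against 7.06% of all genes. An adjusted p under 0.1 was reached by 3 members (8.82%), against 12% of all genes.

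Within the groups, the members varied more at the median than all genes tested. The median standard deviation (SD) within groups was 0.36 on the log2 scale for the members and 0.26 for all genes tested. The spread lay mostly in the Loxp group: the median range over its libraries was 0.99 for the members and 0.58 for all genes, and over the Cre libraries it was 0.53 for the members and 0.47 for all genes. Loxp replicate 2 held the highest of the 8 values in 13 members (38.2%, against 5.07% of all genes), and Loxp replicate 4 the lowest in 12 (35.3%, against 20% of all genes). The median deviation of the members from their own means was 0.26, -0.047, -0.027 and 0.28 in Cre replicates 5 to 8, and -0.067, 0.23, -0.26 and -0.29 in Loxp replicates 1 to 4. Cre replicates 5 and 8 and Loxp replicate 2 were thus the high libraries, and Loxp replicates 3 and 4 the low ones.

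**Figure D1:**
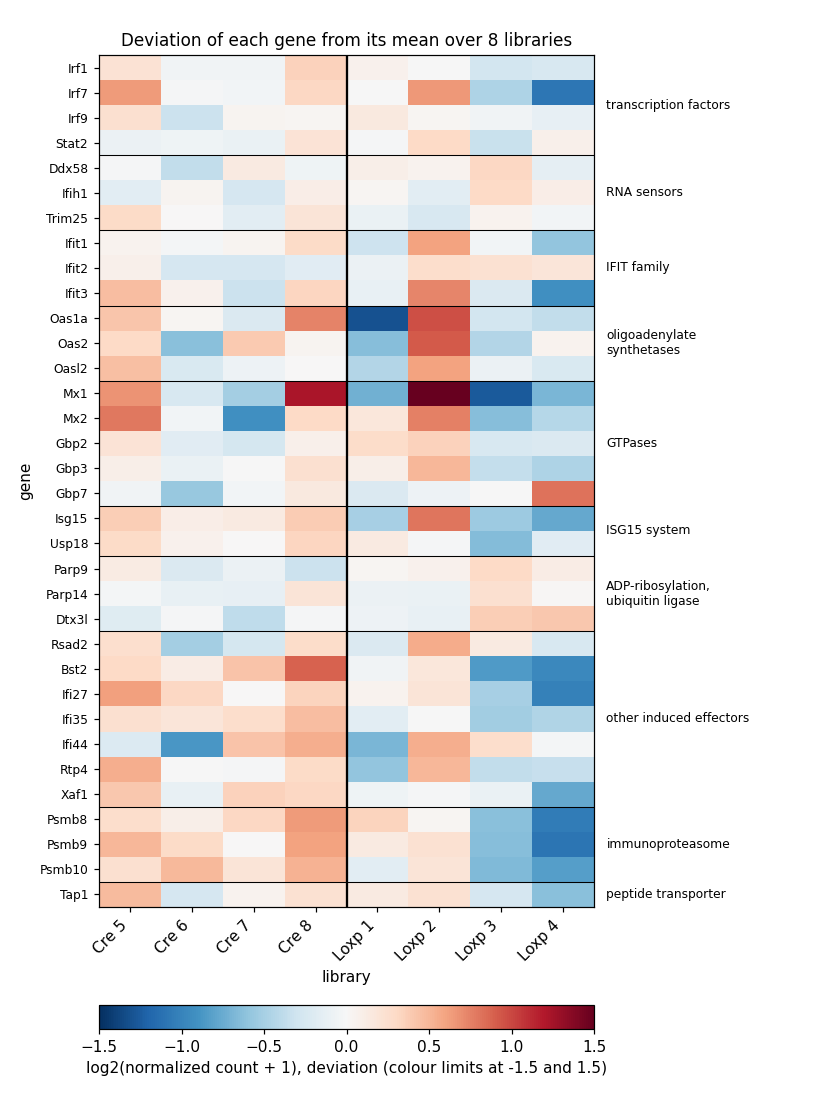
Each row is a gene and each column a library, with the 4 Cre libraries left of the line and the 4 Loxp libraries right of it. Colour gives the deviation of log2(normalized count + 1) from the gene's mean over the 8 libraries. Loxp 2 is high across the IFIT, oligoadenylate synthetase and Mx rows, and Loxp 3 and 4 are low in the immunoproteasome rows, where the median deviations are -0.64 and -1.04.

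Of the transcription factors of the pathway, Stat2 and Irf9 were near level between the groups, and Irf1 and Irf7 had higher estimates in Cre. Irf1, a factor induced by interferon gamma that acts on antigen presentation genes, had 754, 628, 627 and 825 normalized counts in Cre replicates 5 to 8 and 680, 649, 540 and 553 in Loxp replicates 1 to 4. The groups overlapped, with Cre replicate 8 highest and Loxp replicates 3 and 4 lowest, and the log2 difference was 0.22 ± 0.14 (SE, limma, adjusted p = 0.318), and 0.084 without Loxp replicates 3 and 4. Stat2, a subunit of the type I interferon complex, had 369, 378, 368 and 455 in Cre replicates 5 to 8 and 390, 486, 313 and 416 in Loxp replicates 1 to 4. Both its highest and its lowest value lay in the Loxp group, and its difference was -0.020 ± 0.16 (adjusted p = 0.95). Irf9, which carries the DNA binding of that complex, differed by -0.0039 ± 0.15 (adjusted p = 0.991). Irf7, the factor that amplifies type I interferon, differed by 0.45 ± 0.30 (adjusted p = 0.352), and this rested on single Loxp libraries: it was 0.74 without replicate 2, 0.16 without replicate 4 and -0.10 without replicates 3 and 4.

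The RNA sensors did not differ beyond their spread. Trim25, a ubiquitin ligase that activates the RNA sensor encoded by Ddx58, had 1127, 929, 830 and 1055 in Cre replicates 5 to 8 and 866, 783, 963 and 901 in Loxp replicates 1 to 4. The groups overlapped, and the log2 difference was 0.16 ± 0.13 (SE, limma, adjusted p = 0.444). Ddx58, which encodes the sensor RIG-I, and Ifih1, which encodes MDA5, differed by -0.16 ± 0.17 and -0.14 ± 0.16, and both were highest in Loxp replicate 3.

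The antiviral effectors that block translation or degrade RNA varied widely among the Loxp libraries, apart from Ifit2. Its Loxp range was 0.36 on the log2 scale, below the median of 0.58 over all genes. Ifit3, of the family that binds foreign RNA, had 514, 388, 296 and 464 in Cre replicates 5 to 8 and 343, 620, 319 and 196 in Loxp replicates 1 to 4. The Loxp group alone held both extremes, and the log2 difference was 0.26 ± 0.29 (SE, limma, adjusted p = 0.579), 0.55 without Loxp replicate 2, -0.0036 without Loxp replicate 4 and -0.18 without Loxp replicates 3 and 4. Its count is uncertain, since 51.2% of its 50-base windows also occur in Ifit3b. Ifit2 had 312, 248, 248 and 261 in Cre replicates 5 to 8 and 278, 356, 345 and 336 in Loxp replicates 1 to 4. Only Cre replicate 5 reached the Loxp range, and the difference was -0.30 ± 0.16 (adjusted p = 0.244). Ifit1 differed by 0.17 ± 0.23, 0.40 without Loxp replicate 2 and 0.0047 without Loxp replicate 4. Without Loxp replicates 3 and 4, Ifit1 was at -0.057 and Ifit2 at -0.24.

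The oligoadenylate synthetases make the messenger that activates RNase L. Oas1a had 104, 78.7, 66.7 and 131 in Cre replicates 5 to 8 and 30.6, 153, 63.8 and 59.7 in Loxp replicates 1 to 4, so the Loxp group held the lowest and the highest value. Its log2 difference was 0.49 ± 0.41 (SE, limma, adjusted p = 0.452), 0.90 without Loxp replicate 2 and 0.13 without Loxp replicate 1, and 57.6% of its 50-base windows occur in other genes such as Oas1g. Oasl2 had 337, 212, 235 and 249 in Cre replicates 5 to 8 and 183, 376, 233 and 210 in Loxp replicates 1 to 4. It showed the same order among the Loxp libraries at the top and bottom, and differed by 0.077 ± 0.23. Oas2 differed by 0.053 ± 0.36 and was also highest in Loxp replicate 2 and lowest in Loxp replicate 1.

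The GTPases varied in opposite ways. Gbp7, a guanylate-binding protein, had 754, 528, 760 and 868 in Cre replicates 5 to 8 and 670, 740, 776 and 1370 in Loxp replicates 1 to 4. Loxp replicate 4 stood above all others, and the log2 difference of -0.25 ± 0.21 (SE, limma, adjusted p = 0.465) was -0.023 without it. Of its 50-base windows, 12.7% also occur in other genes, among them the pseudogene Gm43802 and Gbp3. Gbp2 and Gbp3 differed by -0.082 ± 0.18 and 0.11 ± 0.20 and were highest in Loxp replicate 2. Mx1 and Mx2 were the lowest members per kilobase of exon, with Mx1 at 3.48 normalized counts per kilobase in Cre and 2.78 in Loxp. At that level Mx1 differed by 0.58 ± 0.71, with Loxp replicate 2 highest, and by -0.10 without Loxp replicates 3 and 4.

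Isg15, a ubiquitin-like protein attached to other proteins, and Usp18, the protease that removes it and damps the interferon receptor, leaned higher in Cre. Usp18 had 294, 252, 241 and 300 in Cre replicates 5 to 8 and 264, 237, 153 and 213 in Loxp replicates 1 to 4, and its log2 difference was 0.35 ± 0.19 (SE, limma, adjusted p = 0.264). The groups overlapped through Loxp replicate 1, and the difference was 0.11 without Loxp replicates 3 and 4. Isg15 had 228, 188, 194 and 230 in Cre replicates 5 to 8 and 125, 308, 120 and 103 in Loxp replicates 1 to 4. Here 3 of the 4 Loxp libraries lay below every Cre library and Loxp replicate 2 above them all. The difference was 0.50 ± 0.29 (adjusted p = 0.287), 0.85 without Loxp replicate 2, where Isg15 passed (adjusted p = 0.0261), and 0.092 without Loxp replicates 3 and 4. Isg15 was outside the rule for naming and is given for this pattern, chosen after its values were seen.

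Parp9, Parp14 and Dtx3l, which encode ADP-ribosyltransferases and the ubiquitin ligase partner of PARP9, had lower estimates in all 3. Dtx3l had 537, 605, 470 and 603 in Cre replicates 5 to 8 and 581, 568, 792 and 806 in Loxp replicates 1 to 4. Loxp replicates 3 and 4 were above all others, and Loxp replicates 1 and 2 lay within the Cre range. The log2 difference was -0.30 ± 0.16 (SE, limma, adjusted p = 0.238) and -0.060 without Loxp replicates 3 and 4. Parp9 differed by -0.25 ± 0.15 and Parp14 by -0.034 ± 0.14. Parp9 and Dtx3l overlap on opposite strands over 9.4% of the exon bases of Parp9 and 8% of those of Dtx3l, and with the strand setting of the counting unknown their reads there cannot be told apart.

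Ifi35 is given in full because its groups did not overlap. Ifi35, an interferon-induced leucine zipper protein, had 992, 948, 1004 and 1154 in Cre replicates 5 to 8 and 753, 838, 582 and 611 in Loxp replicates 1 to 4. Every Cre library was above every Loxp library, and the means were 1024 ± 89.5 in Cre and 696 ± 121 in Loxp (SD, n = 4 each). The log2 difference was 0.57 ± 0.14 (SE, limma, adjusted p = 0.0796) and 0.36 without Loxp replicates 3 and 4 (adjusted p = 0.606). An antisense transcript covers 16.8% of its exon bases.

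Bst2, which encodes tetherin, a membrane protein that holds budding virus on the cell, had the largest difference of the 34. Its values were 1365, 1203, 1497 and 2051 in Cre replicates 5 to 8 and 1073, 1248, 615 and 568 in Loxp replicates 1 to 4. Only Loxp replicate 2 reached into the Cre range. The log2 difference was 0.86 ± 0.25 (SE, limma, adjusted p = 0.081) and 0.37 without Loxp replicates 3 and 4.

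Ifi27 was the most abundant member per kilobase of exon, at 2230 normalized counts per kilobase in Cre and 1494 in Loxp. Its counts were 3979, 3227, 2597 and 3284 in Cre replicates 5 to 8 and 2683, 2962, 1836 and 1288 in Loxp replicates 1 to 4, and the log2 difference was 0.64 ± 0.23 (SE, limma, adjusted p = 0.111). The groups overlapped, and without Loxp replicates 3 and 4 the difference was 0.20. Xaf1, a regulator of cell death, had 258, 181, 248 and 243 in Cre replicates 5 to 8 and 187, 193, 182 and 115 in Loxp replicates 1 to 4. Cre replicate 6 and Loxp replicate 4 lay below the rest of their groups, and the difference was 0.47 ± 0.21 (adjusted p = 0.173), 0.28 without Loxp replicates 3 and 4. Rtp4 differed by 0.41 ± 0.23, Rsad2, which encodes viperin, by -0.12 ± 0.22, and Ifi44 by -0.051 ± 0.35. Like the IFIT genes, Rsad2 was highest in Loxp replicate 2.

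**Figure D2:**
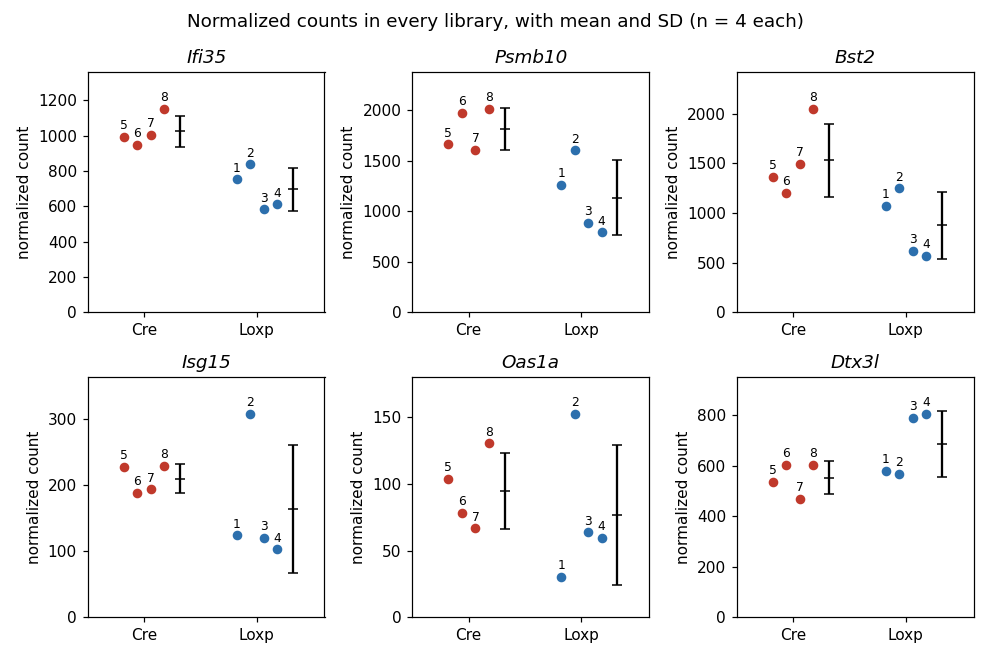
Normalized counts in every library for 6 genes, with Cre (red) left of Loxp (blue). Numbers beside the points are replicate numbers, and bars give the mean and SD of 4 libraries. The groups do not overlap in Ifi35 and Psmb10, Loxp 2 stands above the other Loxp libraries in Isg15 and Oas1a, and Loxp 3 and 4 stand above the rest in Dtx3l.

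The immunoproteasome is the form in which Psmb8, Psmb9 and Psmb10 replace the constitutive catalytic subunits Psmb5, Psmb6 and Psmb7, and it cuts peptides suited to MHC class I. Psmb10 had 1662, 1972, 1610 and 2017 in Cre replicates 5 to 8 and 1260, 1603, 888 and 791 in Loxp replicates 1 to 4. The groups did not overlap, although Loxp replicate 2 came within a few counts of Cre replicate 7. The means were 1815 ± 209 in Cre and 1135 ± 371 in Loxp (SD, n = 4 each), and the log2 difference was 0.73 ± 0.19 (SE; adjusted p = 0.0796 by limma). Without Loxp replicates 3 and 4 it was 0.35 (adjusted p = 0.61). Psmb8 and Psmb9 differed by 0.65 ± 0.26 (adjusted p = 0.132) and 0.69 ± 0.27 (adjusted p = 0.127), with Loxp replicates 3 and 4 below every Cre library, and by 0.14 and 0.17 without that pair.

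Each inducible subunit was also set against the constitutive subunit it replaces, within each library, so that library scaling drops out. The log2 ratio of Psmb10 to Psmb7 was -2.91, -2.45, -2.78 and -2.44 in Cre replicates 5 to 8 and -3.28, -2.96, -3.59 and -3.70 in Loxp replicates 1 to 4. The groups did not overlap, and the ratio was higher in Cre by 0.74 ± 0.21 (SE; exact two-sided permutation p = 0.0286, adjusted p = 0.0857 over the 3 ratios). It was 0.48 without Loxp replicates 3 and 4 and ran from 0.63 to 0.88 as each library was left out. A trend with exon length, described below, need not drop out of this ratio, since Psmb10 has 1705 exon bases and Psmb7 3421. The fit with the length and GC trend removed gave log2 differences of 0.45 for Psmb10 and 0.035 for Psmb7. The ratio of Psmb8 to Psmb5 differed by -0.077 ± 0.18 (exact permutation p = 0.629) and that of Psmb9 to Psmb6 by 0.16 ± 0.19 (p = 0.429, exact permutation), with overlapping groups in both. Exon bases shared with a gene on the opposite strand made up 11.8% of Psmb7 (Nek6) and 14.7% of Psmb8 (Gm20496).

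**Figure D3:**
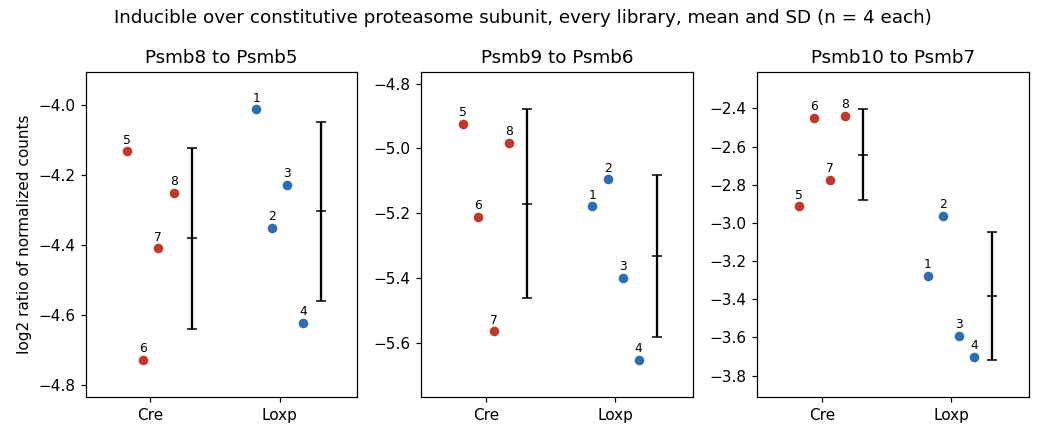
Log2 ratio of the normalized counts of an inducible proteasome subunit to its constitutive counterpart, in each Cre (red, left) and Loxp (blue, right) library, with mean and SD (n = 4 each). Panels have their own axes. Only Psmb10 to Psmb7 has groups that do not overlap, with Cre at -2.91 to -2.44 and Loxp at -3.70 to -2.96.

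The constitutive subunits themselves differed in their estimates. Psmb5 and Psmb6 had estimates of 0.73 ± 0.19 and 0.53 ± 0.16, near those of Psmb8 and Psmb9, and of 0.34 and 0.20 without Loxp replicates 3 and 4, while Psmb7 differed by -0.014 ± 0.11 (SE, limma, adjusted p = 0.95). Of the windows of Psmb5, 54.1% also occur in other genes such as Gm3375, so its count is uncertain. Of the 14 constitutive 20S subunits, 13 had higher estimates. At an unadjusted p under 0.05 (limma), 11 were higher and 0 lower, where 13.6% of all genes were higher and 13.3% lower. The median of the 14 subunits was 0.35, and 0.16 without Loxp replicates 3 and 4. None passed over all genes.

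Tap1, which encodes a subunit of the transporter that carries these peptides into the endoplasmic reticulum, had 553, 333, 410 and 465 in Cre replicates 5 to 8 and 437, 466, 334 and 255 in Loxp replicates 1 to 4. The groups overlapped over most of their range, and the log2 difference was 0.25 ± 0.21 (SE, limma, adjusted p = 0.454). Its sign turned without Loxp replicates 3 and 4, at -0.061. Psmb9, which starts head to head with it, differed by 0.69.

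The size of these differences varied with the libraries in the fit. The median over the 34 members was 0.15 without Loxp replicate 1, 0.35 without Loxp replicate 2, 0.18 without Loxp replicate 3, 0.046 without Loxp replicate 4, 0.12 without Cre replicate 5, 0.25 without Cre replicate 6, 0.26 without Cre replicate 7, and 0.12 without Cre replicate 8. It stayed positive in all 8 of these fits and was -0.025 without both Loxp replicates 3 and 4. Without Cre replicate 8, Irf1 was at 0.15, Ifit1 at 0.11, Oas1a at 0.32, Mx1 at 0.27 and Mx2 at -0.022. Of the members with larger differences, Bst2 was then at 0.71, Ifi27 at 0.63, Ifi35 at 0.51 and Xaf1 at 0.45. Psmb8, Psmb9 and Psmb10 were at 0.55, 0.60 and 0.67. Without Loxp replicate 2, 7 members passed (Bst2, Ifi27, Ifi35, Isg15, Psmb9, Psmb10 and Rtp4; limma, 20.6%, against 13.1% of all genes). Without Loxp replicate 1, 4 passed (Bst2, Ifi35, Psmb8 and Psmb10; 11.8%, against 11% of all genes). With sample quality weights 3 passed (Bst2, Ifi35 and Psmb10; 8.82%, against 7.67% of all genes). Without Loxp replicates 3 and 4, 0 passed, and at an unadjusted p under 0.05 Ifi35 and Psmb10 were higher and no member lower, where 4.36% of all genes were higher and 3.62% lower. Of the 34 estimates, 16 were then positive and 18 negative.

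**Figure D4:**
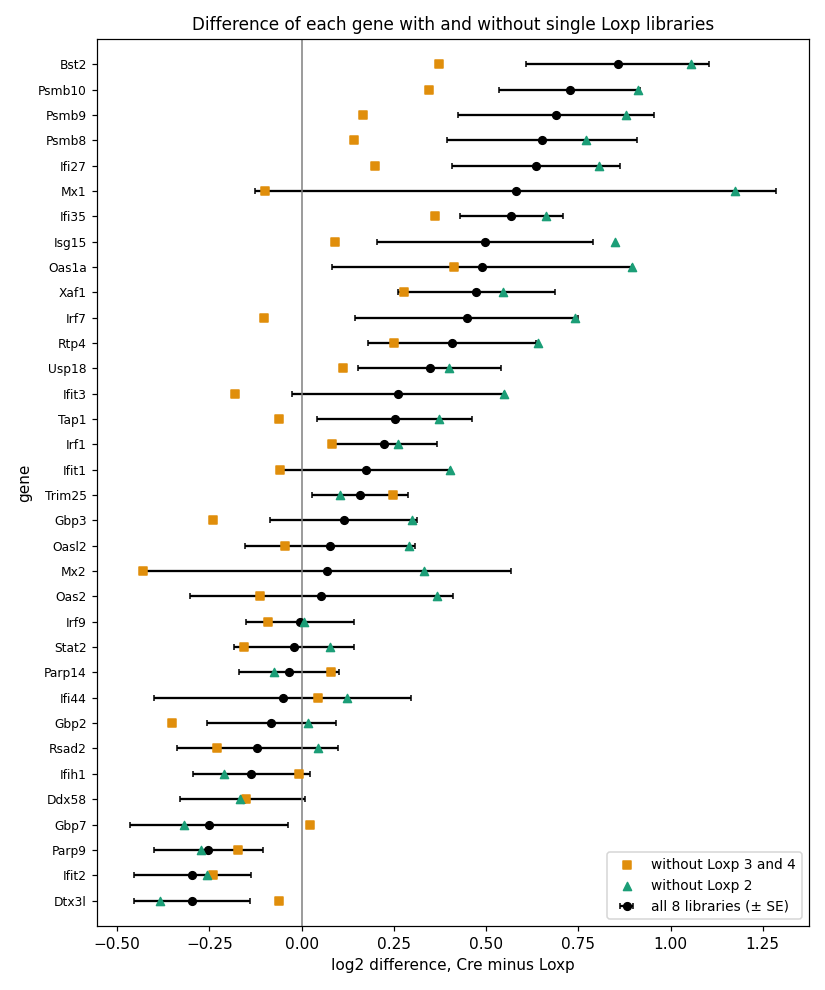
Log2 difference of each gene, Cre minus Loxp, with all 8 libraries (black, bars are SE), without Loxp 3 and 4 (orange squares) and without Loxp 2 (green triangles). Bst2 stands at 0.86, 0.37 and 1.05 and Isg15 at 0.50, 0.092 and 0.85 in these fits.

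Loxp replicates 1 and 2 had the lowest chi-square per gene between their recovered reads, 35.4, against 53.7 to 265 in the other 11 pairs within groups. This measure grows with depth. The median absolute log2 difference over all genes was 0.169 for this pair and 0.173 for Loxp replicates 3 and 4. The interferon genes nevertheless differed between Loxp replicates 1 and 2. Past 1.5-fold, 11 members were higher in Loxp replicate 2 and 0 lower, where 7.98% of all genes were higher and 7.64% lower. In Loxp replicate 4 over Loxp replicate 3, 7.56% of all genes were higher and 7.08% lower by that fold. Oas1a had 153 normalized counts in Loxp replicate 2 and 30.6 in Loxp replicate 1, a ratio of 4.86 on the scale with 1 added. The other 10 were Mx1, Oas2, Isg15, Ifi44, Rtp4, Oasl2, Ifit1, Ifit3, Rsad2 and Irf7. Psmb8, Psmb9 and Psmb10 had ratios of 0.81, 1.07 and 1.27 between the same libraries. Summed markers differed too: neutrophil markers were at 131 in Loxp replicate 2 and 46.4 in Loxp replicate 1, and red blood cell markers at 37436 in Loxp replicate 2 and 19674 in Loxp replicate 1. B and plasma cell markers were at 10478 in Loxp replicate 2 and 7223 in Loxp replicate 1, and adipocyte markers at 40237 in Loxp replicate 2 and 29497 in Loxp replicate 1. Other sums went the other way. Fibro-adipogenic progenitor markers were at 164250 in Loxp replicate 2 and 200950 in Loxp replicate 1, and T and NK cell markers at 264 and 328. Endothelial markers were at 21965 in Loxp replicate 2 and 23190 in Loxp replicate 1, and fast fibre markers were also lower in Loxp replicate 2. The part of these cells in the ratios between the 2 libraries was not tested. These are differences between a pair of libraries of the same group, with no replicate check. Of the 12 members whose promoter window held response element letters, 8 were highest in Loxp replicate 2, of the 14 whose window held none, 3 were, and of the 8 with no window, 2 were. The median log2 difference of Loxp replicate 2 from Loxp replicate 1 was 0.36 with the letters, 0.094 without them and 0.36 with no window. Between the groups the order was different: the median of Cre minus Loxp was 0.047 with the letters, 0.24 without them and 0.21 with no window. This is a count over chosen genes, with no test.

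Low values in Loxp replicates 3 and 4 went with fewer exon bases. The exon bases of all annotated transcripts of a gene combined had a median of 3856 over the members. This combined length can exceed that of the transcript present. Psmb8 has 3381 such bases in 4 merged exons, Psmb9 3660 in 4 and Irf7 3776 in 1. The 17 shorter members had a median log2 difference of 0.49, with 16 higher, and the 17 longer ones a median of -0.034, with 6 higher. Exon length and the log2 difference had a Spearman's rho of -0.69 across the 34 members and -0.41 across 15140 genes, which share the same 8 libraries and are no independent replicates. Median deviations of the shorter members were -0.53 and -0.68 in Loxp replicates 3 and 4, and 0.057 and -0.026 for the longer members in the same libraries. With the length and GC trend removed from each library, the member median was 0.19, with 28 higher estimates, and that of the shorter members was 0.29. Several of the larger differences were smaller in that fit, with Bst2 at 0.56, Psmb10 at 0.45, Ifi27 at 0.40, Ifi35 at 0.32 and Isg15 at 0.22. Others moved little or rose, with Psmb8 at 0.58, Psmb9 at 0.63 and Xaf1 at 0.54. The lengths used there for Psmb8 and Psmb9 may exceed those of their transcripts. In the same fit, exon length and the log2 difference had a Spearman's rho of -0.43 across the members. With the trend removed and Loxp replicates 3 and 4 left out, a fit chosen after seeing the data, the member median was 0.0012. The part of this trend in the results was not tested.

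**Figure D5:**
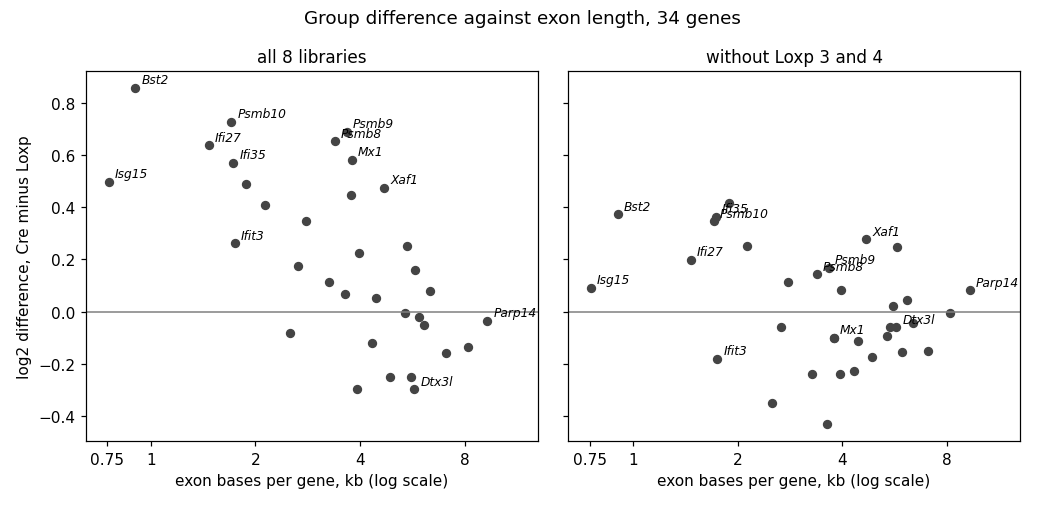
Log2 difference of the 34 genes, Cre minus Loxp, against their exon bases in kilobases on a log axis. With all 8 libraries (left) the 17 shorter genes have a median of 0.49 and the 17 longer ones of -0.034. Without Loxp 3 and 4 (right) these medians are 0.11 and -0.060.

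Upstream of the members, no interferon transcript was detected. Of 21 genes of type I, type III and gamma interferon, 0 were above 3 reads in any library, which corresponds to normalized counts of 2.04 to 3.87, and the highest value was 1.06. Of the 8 tested receptor and JAK kinase genes, 4 had higher and 4 lower estimates, and 0 passed (limma). At an unadjusted p under 0.05, 0 were higher and 3 lower, where 13.6% of all genes were higher and 13.3% lower. Jak2, a kinase of the interferon gamma receptor, had 2867, 3442, 2881 and 3252 in Cre replicates 5 to 8 and 3573, 3790, 4940 and 6300 in Loxp replicates 1 to 4. The groups did not overlap, and the log2 difference was -0.55 ± 0.16 (SE, adjusted p = 0.081) and -0.25 without Loxp replicates 3 and 4. Jak1, shared by all interferon receptors, differed by -0.36 ± 0.14 (adjusted p = 0.135), and by -0.099 without that pair.

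The wider pathway lists had 0 members past the threshold (limma). Among 8 other transcription factors, 4 estimates were higher and 4 lower, with Irf3, the factor that starts interferon production, at 0.39 ± 0.14 (SE; 0.17 without Loxp replicates 3 and 4) and Irf2, a repressor of interferon genes, at -0.37 ± 0.14. Of 14 nucleic acid sensing genes 7 were higher and 7 lower, and an unadjusted p under 0.05 was reached by 0 higher and 2 lower ones, where 13.6% of all genes were higher and 13.3% lower. Those 2 were Adar, the RNA editing enzyme, at -0.49 ± 0.21 and Tlr9, a DNA sensor with low counts, at -1.59 ± 0.66. A list of 13 genes held brakes on the signal, genes for ISG15 conjugation and the interferon-stimulated gene Isg20. Of these 13, 7 were higher, among them Ube2l6, the ISG15 conjugating enzyme, at 0.54 ± 0.21 and Pias4, an inhibitor of STAT proteins, at 0.35 ± 0.14. Without Loxp replicates 3 and 4, Ube2l6 was at 0.20 and Pias4 at 0.10.

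Of 54 other interferon-stimulated genes, 26 estimates were higher and 28 lower, and their median was -0.010. At an unadjusted p under 0.05, 2 were higher and 7 lower (limma), a share for the lower ones close to the 13.3% of all genes and for the higher ones below the 13.6%. Ifi30, a lysosomal thiol reductase of antigen-presenting cells, had 462, 491, 698 and 638 in Cre replicates 5 to 8 and 367, 324, 279 and 291 in Loxp replicates 1 to 4. The groups did not overlap, and the log2 difference was 0.85 ± 0.17 (SE, adjusted p = 0.0796), 0.71 without Loxp replicates 3 and 4. Gbp9 was lower, at 273, 249, 213 and 253 in Cre replicates 5 to 8 and 344, 380, 659 and 573 in Loxp replicates 1 to 4, with a difference of -0.94 ± 0.21 (adjusted p = 0.0796), and -0.55 without Loxp replicates 3 and 4.

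Downstream, 13 of the 16 tested MHC class I and peptide loading genes had higher estimates. Their median was 0.19, and 0.029 without Loxp replicates 3 and 4. At an unadjusted p under 0.05 (limma), 6 were higher and 1 lower, where 13.6% of all genes were higher and 13.3% lower. Pdia3 and Tapbp, chaperones of peptide loading, differed by 0.42 ± 0.11 and 0.42 ± 0.13 (SE), and by 0.32 and 0.20 without that pair. For proteasome activators and assembly factors, 7 of 9 were higher, with a median of 0.45 and 0.20 without that pair of libraries. Pomp, the assembly factor of new proteasomes, differed by 0.50 ± 0.14 and Psmg3, another assembly chaperone, by 1.01 ± 0.24, and without the pair by 0.25 and 0.57. In the 19S regulatory particle 17 of 18 were higher, with a median of 0.18 and 0.053 without the pair. At an unadjusted p under 0.05 there were 4 higher and 1 lower, beside the same shares of all genes (13.6% and 13.3%). Psmd13 was at 0.56 ± 0.15 and Psmd4 at 0.40 ± 0.13, and without the pair at 0.28 and 0.17. None passed over all genes.

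Markers of some other cells were also higher in Cre. Macrophage markers summed to 17262, 13069, 19909 and 20693 in Cre replicates 5 to 8. In Loxp replicates 1 to 4 they summed to 11769, 12865, 8934 and 11819. In the same order, Psmb8 had 465, 411, 479 and 606 in Cre and 490, 395, 250 and 187 in Loxp. Psmb10 had 1662, 1972, 1610 and 2017 in Cre and 1260, 1603, 888 and 791 in Loxp. The summed count of 13 macrophage and monocyte markers was thus 13069 to 20693 in Cre and 8934 to 12865 in Loxp. Of the 13, 12 were higher and none was at 0 throughout. At an unadjusted p under 0.05 (limma), 10 were higher and 0 lower, where 13.6% of all genes were higher and 13.3% lower. For 10 markers of fibro-adipogenic progenitors, which form the connective tissue between fibres, the sums were 204110 to 276930 in Cre and 163140 to 200950 in Loxp, with 10 of 10 higher. Dendritic cell markers, which include Bst2, summed to 1878 to 2890 in Cre and 1337 to 1826 in Loxp, and without Bst2 to 675 to 839 in Cre and 578 to 783 in Loxp. T and NK cell markers summed to 201 to 420 in Cre and 249 to 379 in Loxp, with Ncr1 under 3 reads in every library. Endothelial markers summed to 21072 to 25295 in Cre and 21965 to 26158 in Loxp. The part of these cells in the member differences was not tested.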

How the data were processed

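Total RNA of white quadriceps was taken with a Norgen Biotek kit and made into 8 libraries with a NEBNext Ultra II kit, per the labels' protocols. The submitters' processing notes name STAR, HTSeq, DESeq2, cutadapt and FastQC, and the build GRCm38. Their versions, their settings, the annotation and the strand setting: not given in the sources used here. Values were deposited on a log2 scale. With the log2 undone and 1 subtracted, 100% of the values worth 1 to 1000 reads came within 0.1 of a whole multiple of 1 step per library, as counts divided by size factors would, and these steps gave the recovered reads. Of the gene names, 27 turned into dates were restored through Entrez identifiers.

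The test was limma 3.58.1 (R 4.3.3, eBayes with trend and robust set) of log2 values with 1 added to the normalized count, for genes averaging at least 10, Benjamini-Hochberg adjustment over all 15657 and a threshold of 0.05. The scale understates changes of low genes. The fit was tested on simulated data with independent genes and no shift shared within a library. That simulation therefore does not cover the separation of Loxp replicates 3 and 4. Single values were compared by exact permutation of libraries with scipy 1.17.1. The genes and lists were chosen with earlier results of these data known. Values in every library are given for the member of smallest p and of highest mean in each role, for groups that do not overlap and for members with an outlying library, and of each wider list the 2 genes of smallest p are named. Bst2 and Isg15 were named after their values were seen. Positions, exon lengths, overlaps and shared 50-base windows came from GENCODE M21 of GRCm38, which need not be the annotation used for counting, and promoters from RefSeq. The loess trend had a span of 0.5. No pair of replicates looked like a library deposited again. All sample columns were used. Tables and plots used Python 3.11.15, with numpy 2.4.6, pandas 2.3.3 and matplotlib 3.10.9.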

Additional observations from a re-analysis of the deposited data

Results flagged for a closer look

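Among 74 sets of 4 libraries (34 members and 3 subunit ratios, each in both groups), 3 had a library whose gap to its nearest neighbour took more of the range of its group than Dixon's 95% critical value allows, which chance passes in about 1 in 20 sets. Stat2 had a normalized count of 455 in Cre replicate 8, above 368 to 378 in the other 3 Cre libraries. Xaf1 had 181 in Cre replicate 6, below 243 to 258 in the other 3, and 115 in Loxp replicate 4, below 182 to 193 in the other 3.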

How the results depend on the processing

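Across 21 alternatives, 16 of the 34 members kept the sign of their difference and 18 turned it under at least 1. The number of genes past the threshold, 1 with all libraries, was 2 with no filter, 2 with equal totals, 4 with the length and GC trend removed, 2 without Cre replicates 6 and 8 and 1201 with sample quality weights. As each library was left out in turn it ran from 1 to 2048, with the large counts without Loxp replicate 1 (1722) or 2 (2048), in fits that keep Loxp replicates 3 and 4. The number of members past it, 0 with all libraries, was 3 with sample quality weights (Bst2, Ifi35 and Psmb10, 8.82% against 7.67% of all genes), and 0 to 7 as each library was left out. With Loxp replicates 3 and 4 left out and the trend removed, an alternative chosen after seeing the data, the member median was 0.0012. That median ran from 0.046 to 0.35 as each library was left out and was -0.025 without Loxp replicates 3 and 4. It lay between 0.15 and 0.20 under other pseudocounts, filters, scalings, voom, weights, the trend removed or without Cre replicates 6 and 8. The Acot2 call held under every alternative. No paired analysis was possible because the groups share no replicate numbers. Counts of Mx1, at 3.3 to 28.1 in the Loxp libraries, are limited by depth.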
